A study of Mus musculus with 8 samples.

Results

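The genes described here are 31 genes of sterol and fatty acid synthesis and of their control by the SREBP transcription factors, out of 16888 genes in the deposited table of mouse pancreas RNA levels. They were picked by symbol as a set around Insig1, and Insig1 was selected because its level was lower in one group of these same libraries. The comparison of the groups for these genes is therefore given as a description, with no p-value, and where these genes are counted against the threshold used for all genes, nothing is read from it. Of the 31 genes, 22 reached the level at which genes were compared (at least 1 RPKM in at least 4 libraries), among 8513 such genes in all, and the other 9 are given by level.

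RNA was sequenced from the whole pancreas of mice injected repeatedly with cerulein, which drives acinar secretion to excess and causes acute pancreatitis (AP). Both groups received it, so no library shows the uninjured pancreas. Of the 8 libraries, 4 (CKO1 to CKO4) carry the label Anxa1 CKO, a knockout of Anxa1 restricted to myeloid cells, and 4 (WT1 to WT4) carry the label Anxa1 WT, with the genotype Anxa1 flox/flox. Anxa1 encodes annexin A1, a protein that dampens inflammatory responses. The driver of the deletion, the age and sex of the mice, and the dose and timing of cerulein are not stated in the labels, nor is it said whether replicates were separate animals. Differences between groups are thus set against the spread between libraries, which may be partly technical.

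Cells adjust sterol and fatty acid synthesis through SREBP proteins, which are made as inactive precursors in the membrane of the endoplasmic reticulum. SCAP carries them to the Golgi, where proteases release the active factor, and the INSIG proteins hold SCAP back when sterols are plentiful. Insig1 is itself a target of the active factors, so its transcript commonly follows their activity, and acinar cells of the pancreas hold a very large endoplasmic reticulum for making digestive enzymes.

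The libraries held 30469002 to 34359802 reads, as recovered from the deposited RPKM values (reads per gene, scaled to gene length and to library size). The summed level of 10 acinar markers was 261932 to 310015 RPKM in CKO and 271579 to 296304 RPKM in WT, as the tissue label states. Anxa1 was at 4.84, 4.76, 5.21 and 7.13 RPKM in CKO1 to CKO4 and at 8.44, 14.7, 7.05 and 9.74 RPKM in WT1 to WT4, so the transcript remained in each CKO library and the groups overlapped slightly. WT2 stood apart in fat and lymphoid markers: 10 summed adipocyte markers came to 194.8 RPKM there and to 30.6 to 51.4 RPKM in the other 7 libraries, and 6 summed B and plasma cell markers came to 13.2 RPKM there and 4.54 RPKM in WT3, with no more than 0.496 RPKM in any other. WT2 was also highest for each of 10 macrophage markers (635.1 RPKM summed, at most 472.3 RPKM elsewhere), for each of 5 endothelial markers (30.6 RPKM summed, at most 23.5 RPKM elsewhere) and for summed stellate cell and fibroblast markers (94.1 RPKM, at most 66.2 RPKM elsewhere). Across the 8513 genes, the median log2 change (CKO minus WT, on log2 of RPKM plus 1) was -0.12, and 610 genes (7.17%) passed an adjusted p of 0.05 in limma, 489 lower (5.74%) and 121 higher (1.42%) in CKO. Anxa1 was among the lower genes, with a mean 1.82-fold higher in WT (log2 change -0.73, SE 0.19, limma adjusted p = 0.0417). The all-gene count ran from 223 to 705 when 1 library was left out (235 without CKO2, 279 without CKO4, 223 without WT1, 271 without WT2, 326 without WT3, 280 without WT4). Centring each library on its median gave 305 higher and 267 lower genes. Fewer cells of a type and less RNA per cell cannot be told apart in such bulk libraries.

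SREBP proteins bind sterol elements, often beside boxes for the factor NF-Y, so the promoters of 4 genes on which the results turn were read from RefSeq (GRCm38.p6), each as the stretch of up to 250 bases before the earlier of the RefSeq and GENCODE starts. Insig1 and Hmgcs1 are shown as SREBP targets whose levels varied together, Srebf2 as the gene of a SREBP factor, and Fasn as the fatty acid gene that varied with it. Capitals mark the sterol element TCACNCCAC, the E-box CACGTG and the NF-Y box CCAAT on either strand. The Insig1 window is chr5:28071162-28071362 (plus strand), that of Hmgcs1 is chr13:119690101-119690350 (plus), that of Srebf2 is chr15:82147019-82147180 (plus) and that of Fasn is chr11:120824548-120824797 (minus).
Insig1: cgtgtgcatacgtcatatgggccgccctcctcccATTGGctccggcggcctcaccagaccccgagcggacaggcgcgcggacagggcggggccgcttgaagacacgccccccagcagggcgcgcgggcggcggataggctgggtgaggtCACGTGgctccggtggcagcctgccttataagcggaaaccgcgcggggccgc
Hmgcs1: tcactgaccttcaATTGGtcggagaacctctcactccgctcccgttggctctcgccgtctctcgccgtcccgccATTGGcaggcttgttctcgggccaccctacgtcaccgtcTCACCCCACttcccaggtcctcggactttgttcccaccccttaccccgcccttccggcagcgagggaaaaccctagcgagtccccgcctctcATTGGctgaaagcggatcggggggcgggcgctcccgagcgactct
Srebf2: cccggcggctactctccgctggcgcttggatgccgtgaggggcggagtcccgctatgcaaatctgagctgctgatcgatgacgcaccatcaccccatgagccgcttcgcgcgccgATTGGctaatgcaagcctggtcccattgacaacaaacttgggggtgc
Fasn: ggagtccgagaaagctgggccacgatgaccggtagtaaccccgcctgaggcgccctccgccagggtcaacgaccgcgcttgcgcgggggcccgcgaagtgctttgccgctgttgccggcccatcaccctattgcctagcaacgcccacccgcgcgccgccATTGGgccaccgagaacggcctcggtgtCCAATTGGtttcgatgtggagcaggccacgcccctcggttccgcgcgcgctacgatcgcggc
Counted from the RefSeq start, the Hmgcs1 promoter held the full sterol element with its core beginning 136 bases before the start and NF-Y boxes at 237, 176 and 45 bases. Insig1 held an NF-Y box at 216 bases, an E-box at 101 bases and a match to the shorter core CACNCCAC at 9 bases, the last inside the first GENCODE exon and not printed. Srebf2 held 1 NF-Y box, at 135 bases, and Fasn held 3, at 90, 62 and 59 bases, of which the last pair overlap on opposite strands.

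Promoters were matched for 25 of the 31 genes. An NF-Y box stood within 250 bases of a start in 20 of the 25 (80%), against 39.2% of compared genes with a matched promoter. The full sterol element stood in 1 of 25 (4%, against 1.16%), its core, which lies within the full element, in 3 of 25 (12%, against 6.64%), and the E-box in 5 of 25 (20%, against 10.8%). Only exact matches to these letters were counted, so a site that differs from them by a base was missed. These letter matches describe the windows and do not show binding.

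Insig1 (chromosome 5, 28071363 to 28078662, plus strand), which encodes the INSIG protein that retains SCAP, was lower in CKO, while Srebf1 and Srebf2, which encode the SREBP factors themselves, were higher. Scap and Insig2 showed no separation between the groups. Insig1 was at 47.5, 17.6, 19.9 and 10.8 RPKM in CKO1 to CKO4 and at 52.1, 73.9, 63.2 and 62.3 RPKM in WT1 to WT4. Each CKO library thus lay below each WT library, but CKO1 came close to WT1 and far above the other 3 CKO libraries. The means were 24.0 ± 16.2 RPKM in CKO and 62.9 ± 8.91 RPKM in WT (SD, n = 4 each), 2.62-fold higher in WT, from 905 to 6288 reads per library. The log2 change was -1.54 (SE 0.36), or -1.42 relative to the all-gene median.

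Insig1 was the 1 gene of the 22 past the threshold, and it was in the lower direction, beside 5.74% of all compared genes in that direction. Its choice used this same difference, so nothing is read from the count. Leaving out CKO1 gave -1.93 and leaving out CKO4 gave -1.25, both still past the threshold. The threshold was missed without WT1 (-1.63), WT2 (-1.46), WT3 (-1.54), WT4 (-1.55), CKO2 (-1.47) or CKO3 (-1.53), and with median centring (-1.44). Summed duct cell markers were also lower in each CKO library (307.8 to 574.8 RPKM) than in each WT library (599.1 to 677.9 RPKM). CKO4 was lowest for Insig1 and for these markers. CKO1, with the highest Insig1 in CKO, had 408.6 RPKM of duct markers, below CKO2 (500.4 RPKM) and CKO3 (574.8 RPKM). The 10 summed macrophage markers came to 178.9 to 366.4 RPKM in CKO, lowest in CKO1, and 330.9 to 635.1 RPKM in WT. The part of these cell types in the Insig1 difference was not tested.

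Insig2 (chromosome 1, 121304353 to 121332589, minus strand), the second INSIG gene, was expressed at a lower level. It was at 5.83, 3.16, 3.90 and 2.28 RPKM in CKO1 to CKO4 and at 3.52, 4.06, 4.52 and 4.02 RPKM in WT1 to WT4. The CKO libraries lay on both sides of the WT libraries, in the same order as for Insig1, with CKO1 highest and CKO4 lowest. The means were 3.79 ± 1.51 and 4.03 ± 0.411 RPKM, with a log2 change of -0.12 (SE 0.19), 0.01 from the all-gene median. No stretch of 50 bases is shared between the transcripts of the 2 INSIG genes.

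Scap (chromosome 9, 110333288 to 110384950, plus strand), the escort of the SREBP precursors, was at 15.2, 20.3, 22.1 and 17.8 RPKM in CKO1 to CKO4 and at 19.7, 21.9, 22.2 and 15.6 RPKM in WT1 to WT4. The groups covered nearly the same range. The means of 18.9 ± 3.00 and 19.8 ± 3.06 RPKM gave a log2 change of -0.07 (SE 0.14).

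Srebf1 (chromosome 11, 60199089 to 60222581, minus strand), whose products drive fatty acid genes above all, was at 7.63, 10.1, 10.5 and 9.31 RPKM in CKO1 to CKO4 and at 6.83, 7.04, 7.50 and 5.83 RPKM in WT1 to WT4. Every CKO library was above every WT library, and CKO1 was only just above WT3. The means were 9.38 ± 1.26 and 6.80 ± 0.701 RPKM, 1.38-fold higher in CKO, with a log2 change of 0.41 (SE 0.13), or 0.53 relative to the all-gene median.

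Srebf2 (chromosome 15, 82147181 to 82205379, plus strand), whose product drives mainly sterol genes, showed the same pattern. It was at 8.83, 9.97, 11.9 and 9.01 RPKM in CKO1 to CKO4 and at 7.74, 7.87, 7.64 and 5.49 RPKM in WT1 to WT4. The groups did not overlap, and WT4 was well below the other 3 WT libraries. The means were 9.93 ± 1.40 and 7.18 ± 1.13 RPKM, 1.38-fold higher in CKO, with a log2 change of 0.42 (SE 0.14), or 0.54 relative to the all-gene median. Neither SREBP gene was past the threshold. With median centring both were, at 0.51 for Srebf1 and 0.52 for Srebf2, and Srebf1 also without CKO1, at 0.49. Summed islet markers were 1297 to 2043 RPKM in CKO and 852.6 to 1640 RPKM in WT, and 1 of the 6, Gcg, which encodes glucagon, was higher in each CKO library (175.6, 194.7, 242.7 and 194.3 RPKM) than in each WT library (125.3, 167.6, 108.6 and 154 RPKM). Their part in the SREBP gene differences was not tested.

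**Figure D1:**
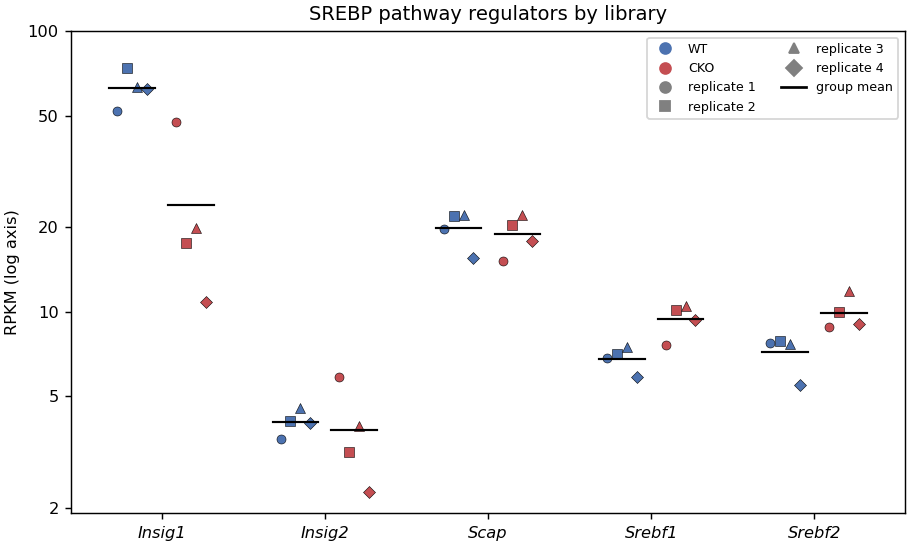
Level in RPKM (log axis) of Insig1, Insig2, Scap, Srebf1 and Srebf2, with 1 point per library, shaped by replicate number, and a line at the mean of each group of 4. Insig1 was lower in each CKO library than in each WT library, Srebf1 and Srebf2 were higher, and the groups overlapped for Insig2 and Scap.

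Of the 22 genes, Insig1, Srebf1 and Srebf2 were the 3 whose groups did not overlap, 1 lower and 2 higher in CKO. Over all compared genes 18.7% did not overlap, 16.2% lower and 2.46% higher. Since the set was built around this contrast, nothing is read from that count. The other 19 overlapped, and the median log2 change of the 22 was -0.07, beside -0.12 over all genes, with 17 of the 22 above the all-gene median.

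The enzymes that build sterols overlapped between the groups. Of the 19 genes grouped under the mevalonate, squalene and sterol steps, which include the sterol carrier gene Stard4, 12 were compared, all of them enzyme genes. Their log2 changes ran from -0.20 to 0.15, with a median of -0.08. Beside 7.17% of all compared genes past the threshold and 18.7% without overlap, 0 of the 12 were past it and 0 separated the groups, and nothing is read from these counts. Over the 16 other settings the log2 changes lay between -0.36 (Nsdhl, limma-voom) and 0.34 (Fdps, length trend removed), and without WT4 that of Nsdhl was -0.33.

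Hmgcs1, which makes the precursor of mevalonate and carried the full sterol element, was at 6.71, 5.52, 6.10 and 3.62 RPKM in CKO1 to CKO4 and at 5.72, 6.84, 5.29 and 5.59 RPKM in WT1 to WT4. CKO1, CKO2 and CKO3 lay within the WT range, and CKO4 was the lowest of all. Its log2 change was -0.10 (SE 0.16). Fdps (chromosome 3, 89093588 to 89101959, minus strand), which makes farnesyl diphosphate and had the highest level among the mevalonate and squalene genes, was at 17.4, 15.8, 18.4 and 11.9 RPKM in CKO1 to CKO4 and at 13.0, 16.6, 13.9 and 13.0 RPKM in WT1 to WT4. Its CKO libraries held both the highest and the lowest values, and the means of 15.9 ± 2.89 and 14.1 ± 1.70 RPKM gave a log2 change of 0.15 (SE 0.14). On the same strand 26.7% of its GENCODE exonic bases overlap the predicted gene Gm43738, so its level is uncertain. The share of its counted reads that this touches is not known.

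Mvk and Mvd, kinase and decarboxylase of the mevalonate route, were at mean levels of 1.48 and 1.97 RPKM in CKO against 1.67 and 2.14 RPKM in WT (log2 changes -0.13 and -0.08). Sqle, the squalene epoxidase, was at 9.06 ± 1.23 RPKM in CKO, and in WT it was at 8.73 ± 0.596 RPKM, so the log2 change was 0.04 (SE 0.12). Fdft1, the squalene synthase, was at 3.67 against 4.04 RPKM (log2 change -0.12). Its exons overlap those of Ctsb on the opposite strand over 18.3% of their bases, and Ctsb was at 239.5 RPKM on average, so without known strand use the Fdft1 level is uncertain.

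Among the later sterol steps, Msmo1 (chromosome 8, 64718139 to 64733792, minus strand), the methyl sterol oxidase, had the highest level. It was at 11.1, 11.9, 14.4 and 7.97 RPKM in CKO1 to CKO4 and at 11.3, 9.74, 9.69 and 10.6 RPKM in WT1 to WT4. The WT values lay close together and the CKO values lay on both sides of them. The means were 11.3 ± 2.65 and 10.3 ± 0.763 RPKM, a log2 change of 0.10 (SE 0.15). Cyp51, the lanosterol demethylase, was at 3.29 RPKM in CKO and 2.90 RPKM in WT (log2 change 0.13), Dhcr7, which makes the last reduction to cholesterol, at 2.20 and 2.06 RPKM (0.06), and Sc5d, a sterol desaturase, at 4.42 and 4.69 RPKM (-0.07). Ebp, a sterol isomerase, was at 2.76 and 3.07 RPKM (-0.10), and Nsdhl, a sterol dehydrogenase, at 1.16 and 1.48 RPKM (-0.20).

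**Figure D2:**
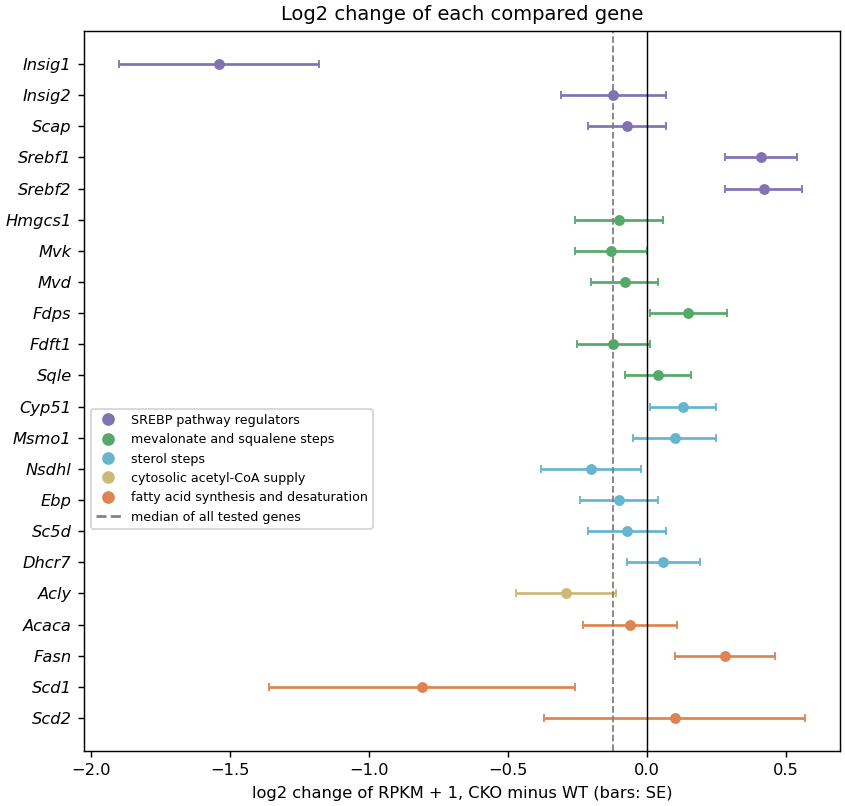
Log2 change (CKO minus WT, log2 of RPKM plus 1) with its SE for each of the 22 compared genes, colored and ordered by role, with a dashed line at the all-gene median of -0.12. Insig1 lies at -1.54, Scd1 has the widest error, and the 12 sterol enzymes lie between -0.20 and 0.15.

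Acetyl-CoA for both routes comes from Acly, which cleaves citrate in the cytosol, and from Acss2, which activates acetate. Acly (chromosome 11, 100476353 to 100528000, minus strand) was at 7.42, 7.05, 8.61 and 5.17 RPKM in CKO1 to CKO4 and at 8.47, 11.7, 9.47 and 6.23 RPKM in WT1 to WT4. WT2 was highest and CKO4 lowest, with overlap between the groups. The means were 7.06 ± 1.43 and 8.96 ± 2.26 RPKM, and the log2 change of -0.29 (SE 0.18) became -0.17 without WT2 or CKO4 and -0.44 without WT4. Acss2 was below the level for comparison, at 0.579 ± 0.0996 RPKM in CKO and 0.953 ± 0.292 RPKM in WT.

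Fasn (chromosome 11, 120805846 to 120824547, minus strand), the fatty acid synthase, was at 11.2, 12.8, 15.5 and 12.3 RPKM in CKO1 to CKO4 and at 9.89, 13.7, 12.6 and 6.87 RPKM in WT1 to WT4. The groups overlapped, with WT4 lowest and CKO3 highest, as for Srebf2. The means were 12.9 ± 1.85 and 10.8 ± 3.04 RPKM, with a log2 change of 0.28 (SE 0.18) that became 0.40 without WT2 and 0.10 without WT4. Acaca, the acetyl-CoA carboxylase that feeds Fasn, was much lower in level, at 0.976 to 1.45 RPKM in CKO and 0.785 to 2.39 RPKM in WT. Its log2 change of -0.06 (SE 0.17) became 0.12 without WT2, the library with its highest level.

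The stearoyl-CoA desaturases Scd1 and Scd2, which make monounsaturated fatty acids, each had 1 library far above the others in WT. Their values in each library are given because of that spread, a choice made after seeing them. Scd1 (chromosome 19, 44394455 to 44407879, minus strand) was at 2.87, 1.69, 2.85 and 2.70 RPKM in CKO1 to CKO4 and at 4.46, 19.6, 3.48 and 1.76 RPKM in WT1 to WT4. WT2 was far above the rest, and WT4 lay within the CKO range. The log2 change of -0.81 (SE 0.55) became -0.22 (SE 0.22) without WT2.

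Scd2 (chromosome 19, 44293674 to 44306864, plus strand) was at 9.01, 2.51, 3.77 and 2.21 RPKM in CKO1 to CKO4 and at 2.98, 9.33, 2.23 and 2.08 RPKM in WT1 to WT4. It was high in CKO1 and WT2 and similar in the other 6 libraries. Its log2 change was 0.10 (SE 0.47), 0.50 without WT2 and -0.25 without CKO1. The transcripts of the 2 genes share 145 stretches of 50 bases, 2.97% of those of Scd1.

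WT2 was the library with the most fat marker RNA, beside its high macrophage, endothelial and stellate markers. All 10 adipocyte markers were highest there, and Adipoq, which fat cells secrete, was at 9.12 RPKM in WT2 and 0.0236 to 1.2 RPKM in the other 7. Plin1, which coats lipid droplets, was at 0.894 RPKM in WT2 and at 0 in CKO4 and WT4. With the group means subtracted, the summed adipocyte markers correlated over the 8 libraries at r = 0.97 with Scd1, 0.91 with Acaca, 0.64 with Fasn, 0.63 with Scd2 and 0.54 with Acly. Without WT2 these were 0.76, 0.61, 0.47, -0.20 and -0.03, and for Insig1 the value was -0.00 with WT2 and -0.53 without it. These are descriptions over libraries that share tissue make-up, and the part of fat tissue, or of the other cell types high in WT2, in the differences between groups was not tested.

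**Figure D3:**
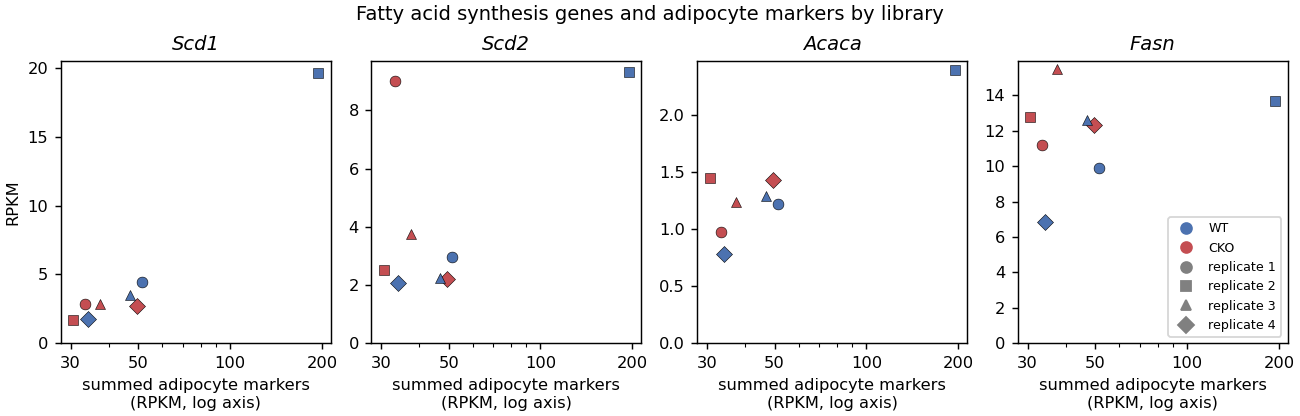
Level in RPKM of Scd1, Scd2, Acaca and Fasn (linear axes) against the summed level of 10 adipocyte markers in RPKM (log axis), with 1 point per library, colored by group and shaped by replicate number. WT2, at 194.8 RPKM of markers, holds the highest Scd1, Scd2 and Acaca, while CKO1 is high in Scd2 at 33.4 RPKM of markers.

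The sterol enzymes varied together within the groups. After the group means were subtracted, the 66 pairs among the 12 enzymes had a median r of 0.71 over 8 libraries, from -0.29 to 0.97, with 64 pairs positive. The median was 0.77 without WT2 and 0.58 without CKO4. In CKO4, 10 of the 12 were below their group mean after rounding, with a median deviation of -0.25 on the log2 scale beside -0.09 over all genes. In CKO1 and in CKO3, 1 of 12 was below it after rounding, with medians of 0.13 and 0.20 beside -0.11 and 0.15 over all genes. Mvk in CKO4 and Msmo1 in CKO1 lay just under their group means (each -0.00) and were not counted as below. In WT, 1 of 12 was below in WT2 (0.20 beside 0.04), 11 in WT3 (-0.07 beside 0.05) and 10 in WT4 (-0.08 beside -0.09). The sterol enzymes thus lay close to all genes in CKO3 and WT4. These correlations share library depth and tissue make-up and are given with no test and no value for other gene pairs.

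Insig1 varied most closely with Insig2, at r = 0.96 (0.98 without WT2 and 0.93 without CKO4). It correlated at 0.82 with Hmgcs1 and 0.75 with Scd2, and without CKO4 these were 0.66 and 0.74. With the 12 sterol enzymes the median was 0.58, falling to 0.30 without CKO4. Correlations without CKO1, where Insig1 and Scd2 stood 1.16 and 1.06 above their group means, were not computed. Srebf1 and Srebf2 correlated with each other at 0.81 and with Fasn at 0.78 and 0.89. Against the sterol enzymes the median r was lower, 0.12 for Srebf1 and 0.46 for Srebf2. CKO1 thus had the highest Insig1, Insig2 and Scd2 of the CKO libraries together with the lowest Scap, Srebf1 and Srebf2.

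**Figure D4:**
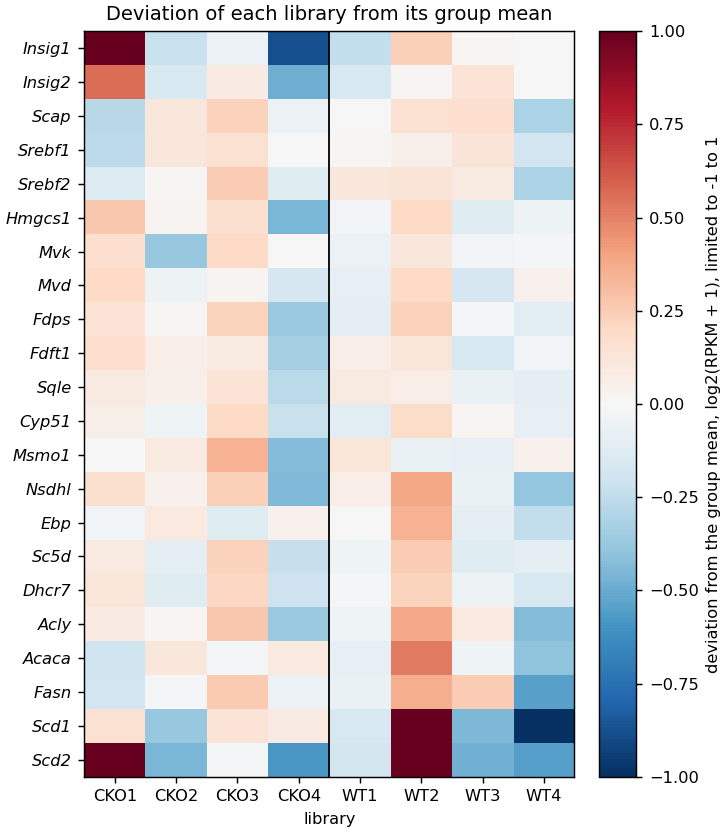
Deviation of each compared gene from its group mean (log2 of RPKM plus 1) in each library, as a color scale limited to -1 and 1, with genes in rows by role and libraries in columns. The sterol enzymes are mostly below their mean in CKO4 and above it in CKO3 and WT2.

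The 9 genes below the level for comparison had means of 0.347 to 1.03 RPKM over the 8 libraries, from Acat2, a cytosolic thiolase, to Idi1, the isopentenyl diphosphate isomerase. The others were Pmvk, Lss, Tm7sf2 and Hsd17b7 of the sterol route, Stard4, which carries sterols, Elovl6, which lengthens fatty acids, and Acss2. Fitted with no filter, their log2 changes ran from -0.30 for Acss2 (SE 0.12) to 0.16 for Idi1. Acat2 rested on 6 to 40 reads per library. Tm7sf2 shares 12.1% of its exonic bases with Vps51 on the same strand, which makes its level uncertain.

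Genes that work around this set were read from 5 further lists, with values from the same limma fit and adjustment over all 8513 genes. Of the 12 genes for SREBP processing and INSIG degradation, 11 were compared, with 1 lower, 0 higher and a median log2 change of -0.09. The lower one was Rnf139, a ubiquitin ligase of the endoplasmic reticulum that binds INSIG proteins, at 3.51 ± 0.506 RPKM in CKO and 5.06 ± 0.416 RPKM in WT (log2 change -0.43, SE 0.12, limma adjusted p = 0.0492). Over 16 other settings its adjusted p ran from 0.0242 to 0.136, and it passed in 6 of them, of the omissions only in that of CKO3.

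Of 12 further sterol and isoprenoid enzymes, 9 were compared, with 1 lower, 0 higher and a median of -0.08. The lower one was Nus1, a subunit of the enzyme that builds dolichol from isoprenoids, at 6.49 ± 0.469 RPKM in CKO and 8.92 ± 0.723 RPKM in WT (log2 change -0.40, SE 0.11, limma adjusted p = 0.0462). It passed in 3 of the 16 other settings, with adjusted p from 0.0423 to 0.123, and missed the threshold when any 1 of the 8 libraries was left out. At an unadjusted p under 0.05 stood 2323 of all 8513 compared genes. In limma 0 of 11 compared genes of LXR and cholesterol handling passed (1 at an unadjusted p under 0.05, median -0.07). The same held for 0 of 18 other fatty acid enzymes (7 at an unadjusted p under 0.05, median -0.20) and 0 of 9 glycerolipid genes (2 at an unadjusted p under 0.05, median -0.15). Over the 58 related genes the median was -0.14, near the all-gene median of -0.12, and 2 passed, beside 7.17% of all compared genes.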

How the data were processed

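The authors deposited 1 table of 16888 genes for 8 libraries. The deposited RPKM values were made by the authors, who divided reads per gene by gene length and library total, as read from the values themselves. With a length fitted to each gene, 16057 of 16068 genes (99.93%) above 0 in at least 2 libraries came out as whole reads within 0.05 reads. The other 11 did not, none of them among the 31 genes. A fitting length is easily found for genes above 0 in few libraries, so the share says little of those. The build was mm10, per the submitters' processing notes. Aligner, counter, strand use and annotation were not given in the sources used here. An unnamed column with 8 numbers was not used.

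The 31 genes and all lists were chosen with earlier results of these data known. Genes reaching 1 RPKM in 4 or more libraries were fitted with limma 3.58.1 (R 4.3.3) on log2 of RPKM plus 1, with no term but group, a mean trend, robust variances and Benjamini-Hochberg adjustment over all 8513 genes at 0.05. A count of 3 reads on 1 kb is 0.0873 to 0.0985 RPKM, which covers counting error only. Values in each library are given for the 5 regulators, for genes past the threshold or without overlap, and for the gene of each role with the highest level. Related genes were named where past the threshold. Scd1, Scd2 and Hmgcs1 are given by library outside that rule, chosen after their values were seen. Positions are from GENCODE M21 and promoters from RefSeq. Alternatives were another pseudocount, no filter, other variances and scalings, recovered reads, a replicate block and each library left out. The fit was tested on simulated data. Other steps ran in Python 3.11.15 with pandas 2.3.3, NumPy 2.4.6, Matplotlib 3.10.9 and SciPy 1.17.1.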

Additional observations from a re-analysis of the deposited data

Results flagged for a closer look

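In 7 of 62 groups of 4 libraries, 1 library lay farther from the others than Dixon's 95% limit allows. Chance gives about 1 in 20 independent groups, but these groups share the same 8 libraries, so nothing is read from the count. In WT2, Scd1 was at 19.6 RPKM (the next WT library at 4.46 RPKM), Scd2 at 9.33 RPKM (next 2.98 RPKM) and Stard4, a sterol carrier protein, at 1.18 RPKM (next 0.664 RPKM). WT2 was also the library with the highest summed adipocyte markers, and their part in these values was not tested. In CKO2, Scd1 was low at 1.69 RPKM (next 2.70 RPKM) and Lss, the lanosterol synthase, was high at 0.657 RPKM (next 0.545 RPKM). In WT4, Srebf2 was low at 5.49 RPKM (next 7.64 RPKM), which widens the distance between the groups for Srebf2. Without WT4 the Srebf2 log2 change was 0.31. In WT3, Hsd17b7, a sterol reductase, was at 0.4 RPKM (next 0.356 RPKM), from 71 reads beside 61 to 65 in the other WT libraries.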

How the results depend on the processing

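Of the 22 compared genes, 1 passed as described. The count was 0 with no filter on low values, 2 with median centring, 3 with totals that left out 31 acinar enzyme genes, 2 with a trend on gene length removed and 0 with the replicate block, and it ran from 0 to 2 when 1 library was left out. Insig1 ran from -1.93 to -1.25 over the 16 alternatives. It was chosen for its direction and its groups do not overlap, so no omission could turn its sign, and nothing is read from the kept direction. It missed the threshold with no filter (-1.54), median centring (-1.44), the length trend removed (-1.41), the replicate block (-1.54) and 6 of the 8 omissions. Srebf1 and Srebf2 passed with median centring, with totals without acinar enzymes (0.47 and 0.48) and with the length trend removed (0.48 and 0.47). Small changes turned sign: with median centring Scap (0.03), Hmgcs1 (0.00), Mvd (0.03), Ebp (0.01), Sc5d (0.03) and Acaca (0.05). With the length trend removed they were Scap (0.00), Mvk (0.05), Mvd (0.10) and Ebp (0.08). Without CKO1 they were Scap (0.02), Acaca (0.01) and Scd2 (-0.25), without CKO3 Sqle (-0.00), Msmo1 (-0.02) and Dhcr7 (-0.01), and without CKO4 Insig2 (0.05), Hmgcs1 (0.05) and Sc5d (0.01). Without WT2 they were Ebp (0.02), Sc5d (0.01) and Acaca (0.12), and Scd2 without WT3 (-0.06) or WT4 (-0.08). Over the omissions the lowest or highest values of these genes were -0.31 for Insig2, -0.18 for Scap, -0.19 for Hmgcs1, 0.13 for Sqle, 0.24 for Msmo1, -0.18 for Ebp, -0.15 for Sc5d, -0.19 for Acaca, 0.14 for Dhcr7 and 0.50 for Scd2. The causes were not tested.

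Of the related genes 2 passed, against 1 with a pseudocount of 0.1, 0 with no filter, 1 with median centring, 1 with limma-voom on recovered reads, 3 with the length trend removed, 0 with the replicate block and 0 to 4 over the omissions. Over all genes the 610 became 464 with no filter and 423 with limma-voom, and 223 to 705 over the omissions. Of the calls, 19.8% were higher in CKO, against 53.3% with median centring, 33.2% with totals without acinar enzymes and 59.4% with the length trend removed. The replicate numbers are in the titles of both groups, but same-numbered libraries had deviations that correlated at -0.12, -0.32, 0.14 and 0.03. Of the 4 CKO libraries, 1 (CKO3) correlated best with its own number. These values cannot tell whether same-numbered libraries were paired, and the labels do not say. With the replicate block 548 genes passed over all genes. A count test by quasi-likelihood was not run, and limma-voom on the recovered reads stands in its place.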
